A study of Homo sapiens with 4 samples.

Results

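The actins and alpha-actinins were followed as 10 genes, chosen by their names in the deposited expression values: ACTC1 and ACTA1 (striated muscle actins), ACTA2 and ACTG2 (smooth muscle actins), ACTB and ACTG1 (cytoplasmic actins), ACTN2 and ACTN3 (striated muscle alpha-actinins) and ACTN1 and ACTN4 (non-muscle alpha-actinins). They are 10 of the 39323 genes with a value. The values come from RD and JR1, established human lines of fusion-negative rhabdomyosarcoma, a tumour whose cells carry the skeletal muscle programme without completing it. Both lines were cultured in serum-containing DMEM and infected with a lentivirus that expressed either a non-targeting hairpin (shSCR, genotype given as WT) or a hairpin against SKP2 (shSKP2, genotype given as SKP2 knockdown). Every library therefore came from infected cells, and the study names the hairpin shSKP2.2. There were 4 poly-A RNA-seq libraries, 1 for each line and condition. With no replicates, no difference below has an error, an SD or a p-value, and a value of another culture of the same line could differ by an unknown amount. The unit is TPM, transcripts scaled to a fixed total, which is already divided by transcript length, so levels can be set side by side between genes. TPM keep no read count, so the depth behind each value is unknown.

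Actin is the protein of the thin filament. Vertebrates have separate genes for the actin of cardiac and skeletal muscle, of smooth muscle and of the cytoplasm, and their proteins are nearly the same. During skeletal muscle development the cytoplasmic actins give way to the sarcomeric ones, with cardiac alpha-actin made first and skeletal alpha-actin later. Alpha-actinins crosslink the filaments. ACTN2 and ACTN3 hold the barbed ends of thin filaments in the Z-disc, where neighbouring sarcomeres meet, and ACTN1 and ACTN4 act at stress fibres, focal adhesions and the cell cortex.

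The 6 actin genes are alike in sequence, and reads must be assigned by the bases at which they differ. Over the whole coding sequence ACTC1 was 85.6% identical to ACTA1, 84.5% to ACTB and 82.9% to ACTG1, and the closest pair was ACTB and ACTG1, at 91.2%. The last 60 coding bases, which encode the corresponding carboxy-terminal stretch and the stop codon in each gene, are shown because they make visible how few bases separate the genes. They were read from GRCh38 with the GENCODE release 44 exons, are written 5′ to 3′ on the coding strand, and lie in the last coding exon. Capitals mark bases that differ from ACTC1.
ACTC1 (chr15:34790412-34790471, minus strand): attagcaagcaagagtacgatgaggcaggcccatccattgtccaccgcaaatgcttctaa
ACTA1 (chr1:229431499-229431558, minus strand): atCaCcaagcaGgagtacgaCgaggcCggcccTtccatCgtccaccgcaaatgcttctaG
ACTA2 (chr10:88935223-88935282, minus strand): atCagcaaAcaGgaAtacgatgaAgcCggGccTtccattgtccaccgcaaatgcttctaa
ACTG2 (chr2:73919516-73919575, plus strand): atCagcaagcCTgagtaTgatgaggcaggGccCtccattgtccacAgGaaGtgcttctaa
ACTB (chr7:5527748-5527807, minus strand): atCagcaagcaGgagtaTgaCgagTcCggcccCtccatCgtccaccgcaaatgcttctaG
ACTG1 (chr17:81510690-81510749, minus strand): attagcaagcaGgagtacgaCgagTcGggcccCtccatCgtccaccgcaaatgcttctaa
There were 8 such differences in ACTA1, 8 in ACTA2, 9 in ACTG2, 9 in ACTB and 6 in ACTG1. The libraries were read as pairs of 150 bases. No stretch of 150 bases in the main transcript of any of the 10 genes occurred in a transcript of another gene of that annotation. At 75 bases, 2.88% of the positions in ACTB and 0.773% of those in ACTN4 were shared with pseudogenes or POTE genes, and none in the other 8. At 50 bases the shared positions were 10.9% in ACTB, 4.22% in ACTG1, 2.57% in ACTN4, 1.87% in ACTA1, 0.926% in ACTN1 and 0.75% in ACTC1. Short reads or short aligned stretches could therefore be split between ACTB and its copies, much less so for ACTC1.

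The targeted transcript checked the labels. SKP2, the substrate-binding subunit of an SCF ubiquitin ligase, was at 92.8 TPM in the RD control and 7.40 in the RD knockdown, and at 46.5 and 2.72 TPM in the JR1 pair. Skeletal muscle lineage markers were present, 7 of 8 at 1 TPM or more in each library, with MYF5 at 0. Their summed level was 432 TPM in RD shSCR, 599.95 in RD shSKP2, 619 in JR1 shSCR and 855 in JR1 shSKP2. CHRNA1 was the largest part of this sum, at 196 and 314 TPM in the RD pair and 284 and 425 TPM in the JR1 pair. MYOD1, MYOG, CDH15 and NCAM1 were also higher in shSKP2 in both lines. CHRND was lower in both, at 17.2 and 9.76 TPM in RD and 53.0 and 34.6 TPM in JR1. DES was higher in RD and lower in JR1. Structural RNAs such as RN7SL1, RN7SL2 and RN7SK took 50.1% and 62.3% of the TPM in RD shSCR and RD shSKP2 and 57.1% and 64.9% in the JR1 pair. Their larger share leaves fewer TPM for the other genes, and the 12985 genes tested, those whose TPM averaged 1 or more across the libraries, had a median log2 change of -0.27 (RD) and -0.21 (JR1). For this reason changes are given on the log2 scale of TPM + 1 in 3 ways: as deposited, relative to that median, and after the structural RNA genes were removed and the TPM rescaled. That removal brought the median to 0.10 for RD and 0.03 for JR1. The added 1 TPM understates the change of low genes.

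The striated actin of these cells was ACTC1, cardiac alpha-actin, and its TPM were higher in shSKP2 than in shSCR in both lines. ACTC1 (chr15:34790230-34795549, GRCh38) stood at 299.8 TPM in RD shSCR, 584 in RD shSKP2, 504 in JR1 shSCR and 1741 in JR1 shSKP2. The lowest value was that of the RD control, the RD knockdown and the JR1 control were close together, and the JR1 knockdown stood far above the rest. Among all genes other than structural RNAs, ACTC1 moved from rank 174 to rank 46 by level in RD and from rank 71 to rank 7 in JR1. On the log2 scale RD differed by 0.96, just under the limit of 1 used for a call, and JR1 by 1.79. This placed ACTC1 above 98.8% of the tested genes in RD and 99.5% in JR1. Measured from the median of those genes the changes were 1.23 and 2.002, and without structural RNA 1.37 and 2.08, so the direction was the same under each scaling. These are levels in whole cultures, and more cells that express ACTC1 cannot be told apart from more ACTC1 RNA per cell. GJD2-DT, a non-coding gene that overlaps ACTC1 over 5320 bases, was between 0.03 and 0.31 TPM.

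Skeletal alpha-actin was close to absent. ACTA1 (chr1:229431245-229434094), the main actin of adult skeletal muscle fibres, had 0.59 TPM in RD shSCR, 0.64 in RD shSKP2, 0.19 in JR1 shSCR and 1.57 in JR1 shSKP2. It exceeded 1 TPM in the JR1 knockdown library and in no other. Its mean stayed under 1 TPM, so it was not among the tested genes. The RD change of 0.04 (log2) was small, that of JR1 was 1.11, and the JR1 value depended on the added constant, with 2.53 for 0.1 TPM and 0.34 for 5 TPM. In each library ACTC1 lay far above ACTA1.

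Both smooth muscle actins were low as well. ACTA2 (chr10:88935074-88991397), the alpha-actin of vascular smooth muscle and myofibroblasts, had 0.23 TPM in RD shSCR, 0.12 in RD shSKP2, 1.12 in JR1 shSCR and 0.98 in JR1 shSKP2. The JR1 libraries lay above the RD libraries, with little difference between conditions in either line. ACTA2 shares bases with FAS (22969 bases, up to 0.72 TPM) and ACTA2-AS1 (4901 bases, up to 0.31 TPM), and whether reads were assigned by strand is not given in the sources used here. ACTG2 (chr2:73893008-73919865), the gamma-actin of visceral smooth muscle, had 0.10 TPM in RD shSCR and 0.04 in JR1 shSCR, and was listed at 0 in both knockdown libraries. Smooth muscle markers gave a background for these values: 3 of 6 (CNN1, TAGLN and SMTN) reached 1 TPM in every library, their summed level was between 14.6 and 35.9 TPM, and MYOCD, the coactivator that defines the lineage, was at 0 in all 4.

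Of the cytoplasmic actins, ACTB was the most abundant of the 10 genes in every library and ACTG1 came next in all but JR1 shSKP2. ACTB (chr7:5527148-5530601), beta-actin, had 3349 TPM in RD shSCR, 2453 in RD shSKP2, 1928 in JR1 shSCR and 1878 in JR1 shSKP2. It ranked 3, 3, 7 and 5 by level in these libraries. Its value was highest in the RD control and nearly equal in the JR1 pair. The log2 change of ACTB in RD was -0.45 as deposited, -0.18 relative to the median and -0.04 without structural RNA, and in JR1 it was -0.04 as deposited but 0.18 and 0.25 under the other scalings, so its sign in JR1 depended on the scaling. ACTG1 (chr17:81509971-81512799), cytoplasmic gamma-actin, had 1443 TPM in RD shSCR, 1096 in RD shSKP2, 919.5 in JR1 shSCR and 994 in JR1 shSKP2. The RD control was again the highest of the 4. Its log2 change in RD was -0.40 as deposited and -0.13 relative to the median but 0.01 without structural RNA, and in JR1 it was 0.11, 0.33 and 0.40. ACTB is widely used as a reference transcript.

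**Figure D1:**
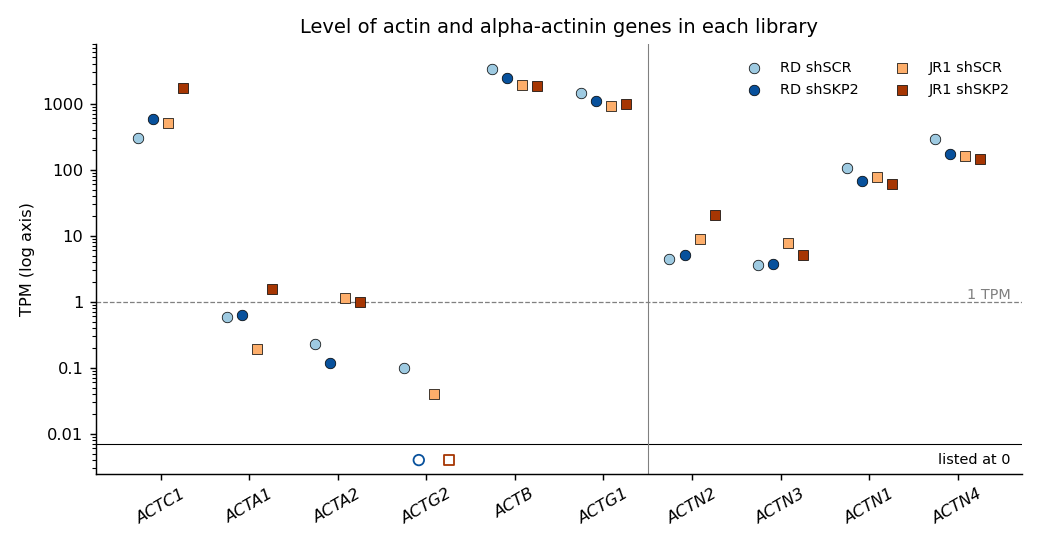
TPM on a log axis of the 6 actin and 4 alpha-actinin genes in each of the 4 libraries, with circles for RD and squares for JR1, light for shSCR and dark for shSKP2; each point is 1 library and the dashed line marks 1 TPM. ACTC1 rises to 1741 TPM in JR1 shSKP2, next to ACTB at 1878, while ACTA1, ACTA2 and ACTG2 lie near or below 1 TPM, ACTG2 at 0 in both shSKP2 libraries (open symbols).

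The order of the levels was the same in both RD libraries: ACTB, ACTG1, ACTC1, ACTN4, ACTN1, ACTN2, ACTN3, ACTA1, ACTA2 and ACTG2. JR1 shSCR had ACTA2 above ACTA1 and otherwise the same order. In JR1 shSKP2 ACTC1 passed ACTG1 and became the second actin after ACTB. With 1 library each, it cannot be said which neighbours in these orders differ beyond their spread.

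The make-up of the actin pool does not depend on how TPM are scaled, because each isoform is divided by the summed TPM of the 6 actins in its own library. By this measure ACTC1 took a larger part of the pool in shSKP2 in both lines. Its share was 5.89% in RD shSCR and 14.1% in RD shSKP2, and 15.0% in JR1 shSCR and 37.7% in JR1 shSKP2. ACTB went the other way, from 65.8% to 59.3% in RD and from 57.5% to 40.7% in JR1. The share of ACTG1 was 28.3% and 26.5% in the RD pair and 27.4% and 21.5% in the JR1 pair. The JR1 control began with about the ACTC1 share that the RD knockdown reached. The share of ACTA1 was at most 0.0340% and that of ACTA2 at most 0.0334%, both in JR1 libraries.

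Ratios between members give the same picture without a sum. There were 0.0895 ACTC1 transcripts per ACTB transcript in RD shSCR, 0.238 in RD shSKP2, 0.261 in JR1 shSCR and 0.927 in JR1 shSKP2, an increase of 2.66-fold in RD and 3.55-fold in JR1. The ratio of the cytoplasmic pair moved little, with 2.32 ACTB per ACTG1 in RD shSCR, 2.24 in RD shSKP2, 2.10 in JR1 shSCR and 1.89 in JR1 shSKP2. Summed over the 6 genes, the actin pool was 5093 TPM in RD shSCR, 4135 in RD shSKP2, 3353 in JR1 shSCR and 4617 in JR1 shSKP2. The shSKP2 over shSCR ratio of this sum was 0.812 in RD as deposited but 1.07 without structural RNA, so its direction in RD depended on the scaling, and in JR1 it was 1.38 and 1.68.

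**Figure D2:**
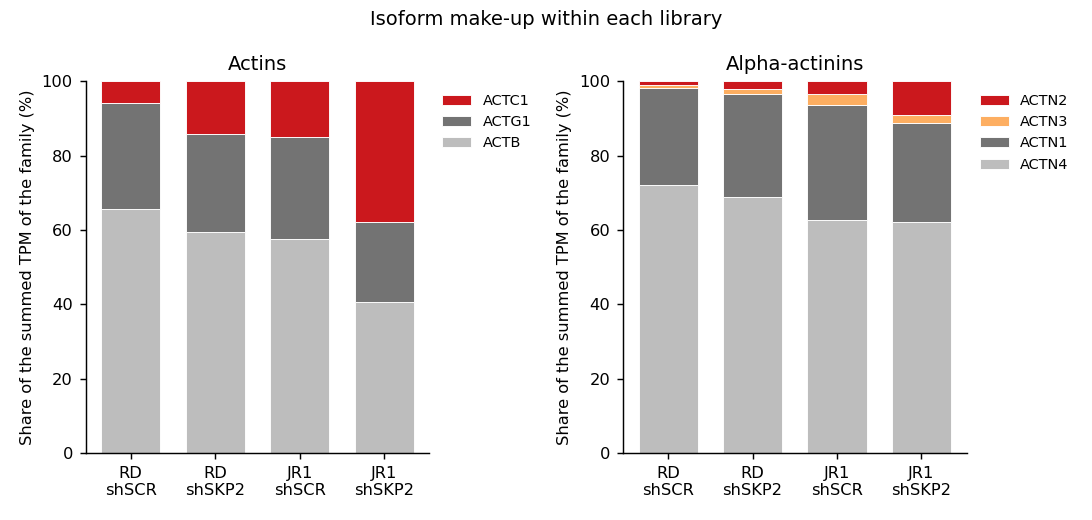
Share in percent of each isoform in the summed TPM of the actins (left) and of the alpha-actinins (right) in each of the 4 libraries, 1 stacked bar per library. The ACTC1 part of the actin bar grows from 5.89% to 14.1% in RD and from 15.0% to 37.7% in JR1, and the ACTN2 part of the alpha-actinin bar from 1.07% to 2.04% and from 3.50% to 9.04%; ACTA1, ACTA2 and ACTG2 are too small to see.

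Among the alpha-actinins, ACTN2 had the largest change in JR1 under each scaling, whereas in RD the change of ACTN4 was larger in size both as deposited and relative to the median. ACTN2 (chr1:236686499-236764631), the Z-disc alpha-actinin of cardiac muscle and of all skeletal fibres, had 4.37 TPM in RD shSCR, 5.04 in RD shSKP2, 8.89 in JR1 shSCR and 20.8 in JR1 shSKP2. The RD pair was close together and the JR1 pair was well apart. Its log2 changes were 0.17 (RD) and 1.14 (JR1), then 0.44 and 1.35 relative to the median, and 0.56 and 1.47 without structural RNA. ACTN3 (chr11:66546395-66563334), the alpha-actinin of fast glycolytic fibres, had 3.63 TPM in RD shSCR, 3.76 in RD shSKP2, 7.74 in JR1 shSCR and 5.14 in JR1 shSKP2. It was the one striated member that was lower in the JR1 knockdown, with log2 changes of 0.04 (RD) and -0.51 (JR1), and these signs were the same under the other scalings (0.31 and -0.30 relative to the median, 0.41 and -0.28 without structural RNA). ACTN2 and ACTN3 stood near 1 to 1 in the RD pair and in JR1 shSCR (ratios of 1.20, 1.34 and 1.149), and at 4.04 to 1 in JR1 shSKP2.

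The non-muscle alpha-actinins were the abundant ones. ACTN4 (chr19:38647649-38731589), found at the leading edge and in podocyte foot processes, had 296 TPM in RD shSCR, 170.1 in RD shSKP2, 159 in JR1 shSCR and 143 in JR1 shSKP2. ACTN1 (chr14:68874123-68979302), a stress fibre and adhesion protein, had 107 TPM in RD shSCR, 67.8 in RD shSKP2, 77.95 in JR1 shSCR and 61.0 in JR1 shSKP2. Both had their highest value in the RD control and a smaller gap in JR1. For ACTN1 the log2 changes were -0.65 (RD) and -0.35 (JR1) as deposited, -0.38 and -0.13 relative to the median, and -0.25 and -0.06 without structural RNA. That of ACTN4 in RD was -0.79, -0.52 and -0.39 in the same order, and in JR1 -0.16 as deposited but 0.06 and 0.13 under the other scalings, so its sign in JR1 depended on the scaling. LOC107985291, which overlaps ACTN4 over 26386 bases, had 0.58 to 1.99 TPM.

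Shares within the alpha-actinin pool, again free of the scaling, put the striated part at 1.95% in RD shSCR, 3.57% in RD shSKP2, 6.55% in JR1 shSCR and 11.3% in JR1 shSKP2. ACTN2 alone took 1.07% and 2.04% in the RD pair and 3.50% and 9.04% in the JR1 pair. ACTN3 went from 0.885% to 1.52% in RD and from 3.05% to 2.24% in JR1. ACTN4 held 72.0%, 69.0%, 62.7% and 62.1% of the pool in RD shSCR, RD shSKP2, JR1 shSCR and JR1 shSKP2. Thus ACTC1 approached the level of ACTB in JR1 shSKP2, whereas ACTN2 remained far below ACTN1, at 0.340 ACTN2 transcripts per ACTN1 transcript there, against 0.114 in JR1 shSCR and 0.0409 and 0.0743 in the RD pair.

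Counts of called members were set beside those of all tested genes, a call being a log2 change of at least 1. Of the 10 members 7 were tested, all but ACTA1, ACTA2 and ACTG2. As deposited, 0 of 7 were called higher in RD, where 1.08% of all tested genes were, and 0 were called lower, against 7.37% of all. In JR1, 2 of 7 (ACTC1 and ACTN2) were called higher, against 1.78% of all tested genes, and 0 lower, against 9.05%. The 7 had a median change of -0.40 (RD) and -0.04 (JR1). After centring on the median of the tested genes, 1 member (ACTC1) was called higher in RD, against 2.09% of all, and the same 2 in JR1, against 2.99%, and 0 were called lower, against 3.53% and 5.47%. Without structural RNA 9 members reached a mean of 1 TPM. ACTC1 was then called higher in RD, against 3.77% of all, and ACTC1, ACTN2 and ACTA1 in JR1, against 4.71%. None was called lower, against 3.41% of all in RD and 6.73% in JR1.

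**Figure D3:**
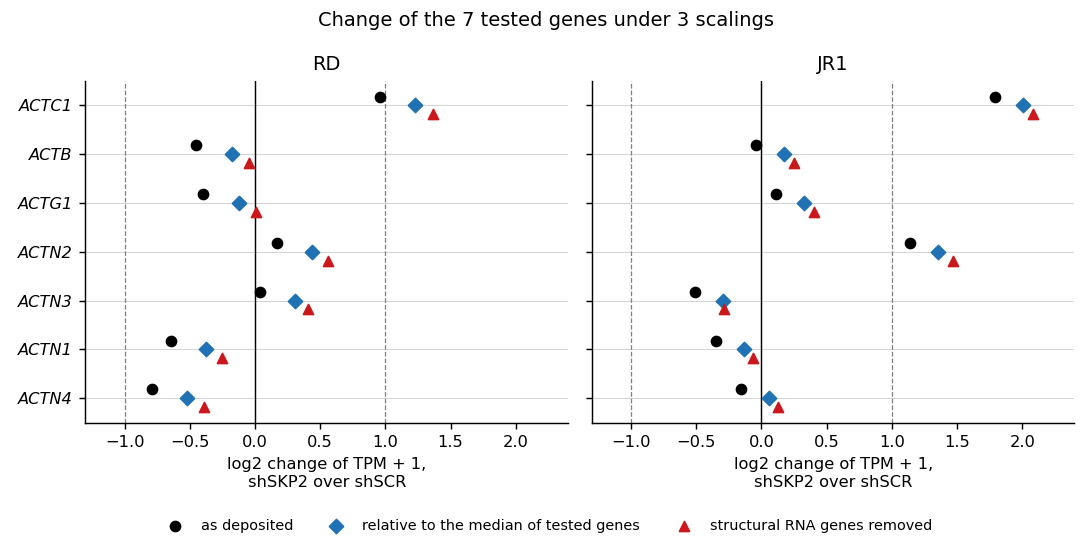
Log2 change of TPM + 1 in shSKP2 over shSCR for the 7 tested members in RD (left) and JR1 (right), with circles as deposited, diamonds relative to the median of the tested genes and triangles after removal of structural RNA; dashed lines mark a change of 1 in either direction and each symbol compares 1 library with 1 library. ACTC1 lies at 0.96 to 1.37 in RD and 1.79 to 2.08 in JR1, while ACTB in JR1, ACTG1 in RD and ACTN4 in JR1 cross 0 between scalings.

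The change in JR1 minus the change in RD was 0.83 for ACTC1, 0.97 for ACTN2, 0.64 for ACTN4, 0.51 for ACTG1, 0.41 for ACTB and 0.30 for ACTN1, and -0.55 for ACTN3. All tested members but ACTN3 therefore had the higher log2 change in JR1. With 1 library in each arm the difference between lines was not tested.

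The control libraries alone describe the lines before SKP2 depletion. JR1 shSCR had more of each striated member that was tested and less of each cytoplasmic or non-muscle member than RD shSCR. The log2 difference, JR1 over RD, was 0.75 for ACTC1, 0.88 for ACTN2 and 0.92 for ACTN3, and -0.80 for ACTB, -0.65 for ACTG1, -0.45 for ACTN1 and -0.89 for ACTN4. The median over all tested genes was -0.23, and the signs of these 7 were the same relative to it. As deposited 0 of 7 were called in either direction, against 3.44% of all tested genes higher and 6.5% lower. Relative to the median ACTN2 and ACTN3 were called higher, at 1.11 and 1.148, against 5.06% of all, and 0 lower, against 3.81%. Without structural RNA ACTN2, ACTN3 and ACTA2 were called higher, against 5.72% of all, and 0 lower, against 5.08%.

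The upstream bases of the actin genes are shown because several members share an element there. Serum response factor (SRF) binds the CArG box and, with its actin-regulated cofactors MRTFA and MRTFB, controls many actin genes. The 150 bases before the annotated start site, from RefSeq on GRCh38.p14, are written 5′ to 3′ on the coding strand, with exact CArG boxes in capitals.
ACTC1 (chr15:34795550-34795699, minus strand): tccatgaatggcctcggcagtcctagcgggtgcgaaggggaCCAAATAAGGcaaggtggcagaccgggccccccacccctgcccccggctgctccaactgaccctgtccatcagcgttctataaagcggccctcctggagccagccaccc
ACTA1 (chr1:229434095-229434244, minus strand): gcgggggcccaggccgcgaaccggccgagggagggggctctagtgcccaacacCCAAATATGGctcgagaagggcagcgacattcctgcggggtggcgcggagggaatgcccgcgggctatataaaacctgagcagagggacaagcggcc
ACTG1 (chr17:81512800-81512949, minus strand): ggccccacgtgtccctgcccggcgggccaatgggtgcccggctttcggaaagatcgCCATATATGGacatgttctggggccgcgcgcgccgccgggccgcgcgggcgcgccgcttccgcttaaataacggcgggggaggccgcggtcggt
ACTG2 (chr2:73892858-73893007, plus strand): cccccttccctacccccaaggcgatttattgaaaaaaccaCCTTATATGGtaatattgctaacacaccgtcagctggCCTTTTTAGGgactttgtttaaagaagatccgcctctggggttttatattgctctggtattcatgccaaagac
Counted from the start site, the first base of the box was at -109 in ACTC1, -97 in ACTA1, -94 in ACTG1, and -110 and -73 in ACTG2, which has a pair of them. ACTC1 and ACTG1 each have a box at a similar distance, and ACTA1 and ACTG2, which were near 0 TPM, have boxes too. The ACTC1 box belongs to the first of 3 listed starts, and the windows of its other starts held no exact match. Whether the boxes bear on the levels or their changes was not tested. Searched on both strands, an exact CArG box was in 1.29% of 35116 RefSeq promoter windows of 300 bases. A further match was at -171 from the third of 4 listed starts of ACTN1. No exact match was in the windows of ACTA2, ACTN2 or ACTN4. Near matches with a C or G among the middle bases were not counted, such as ccctatatgg and ccttgtttgg in a window of ACTA2. The window of ACTN2 is shown with the E-box CANNTG, the element of MYOD and other basic helix-loop-helix factors, in capitals.
ACTN2 (chr1:236686349-236686498, plus strand): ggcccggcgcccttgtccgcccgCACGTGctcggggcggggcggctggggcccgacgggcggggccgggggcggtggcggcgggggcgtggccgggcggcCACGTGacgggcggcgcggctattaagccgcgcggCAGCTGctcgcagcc
A CANNTG match is common, in 68.7% of the same windows, and CAGCTG, the last match in the ACTN2 sequence, was in 17.9%. ACTC1 has a CAACTG within the bases shown, which the CArG box does not overlap. Such matches were not particular to striated members. ACTG2 has a CAGCTG and ACTG1 a CACGTG within the bases shown, and CAGCTG is also in windows of ACTN1 and ACTN4. A match is a description of the letters and was not tested as a site. ACTB and ACTN3 had no entry.

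Actin and alpha-actinin work through partners, and 8 lists with 112 different genes, of which 102 were tested, describe them. As deposited, 5 of these genes were called higher and 18 lower in RD, and 8 higher and 15 lower in JR1. Of all tested genes 1.08% were called higher and 7.37% lower in RD, and 1.78% and 9.05% in JR1.

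Actin is folded by the chaperonin CCT with prefoldin, and its start and one histidine are processed by NAA80, ACTMAP and SETD3. All 17 genes of this list were tested and their median changes were -0.27 (RD) and -0.22 (JR1), close to the medians of all genes. PFDN2, a prefoldin subunit, was the highest in both lines, at 0.03 and 0.13. The protease gene ACTMAP (C19orf54 in the files) was called lower in RD, from 10.1 to 4.19 TPM, and had 7.05 and 3.72 TPM in JR1. Its RD call ended at -0.83 relative to the median and -0.81 without structural RNA. VBP1, also of prefoldin, was called lower in JR1, from 22.01 to 8.39 TPM, and had 26.0 and 13.0 TPM in RD.

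Genes that bind monomers or turn filaments over were near the background as well. None of the 13 was called higher, GSN (gelsolin, which severs filaments) was called lower in RD, from 215 to 105 TPM, and none was called in JR1. The GSN call ended at -0.76 relative to the median and -0.63 without structural RNA. The medians were -0.29 (RD) and -0.11 (JR1). The muscle-type members CFL2 and CAP2 had the highest changes, CFL2 in RD at 0.18 and CAP2 in JR1 at 0.59. TWF2 had the lowest in JR1, at -0.69.

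Filament end proteins included genes called in both directions. Of 8 tested, 4 were called lower in RD (CAPZA1, CAPZB, TMOD3 and CAPG) and 3 in JR1 (CAPZA1, CAPZB and TMOD3), against 7.37% and 9.05% of all tested genes. CAPZB, a subunit of CapZ, which caps barbed ends, went from 101 to 47.0 TPM in RD and, for JR1, from 94.1 to 37.9 TPM. CAPZA1, its partner subunit, went from 108 to 50.9 TPM in RD and, for JR1, from 112 to 45.8 TPM. TMOD3, the widely expressed pointed-end tropomodulin, went from 6.45 to 2.0 TPM in RD and, for JR1, from 5.48 to 1.48 TPM. TMOD1, the tropomodulin of striated muscle and red cells, had 1.62 and 3.15 TPM in the RD pair and was called higher in JR1, from 2.13 to 6.04 TPM. LMOD3, the leiomodin of skeletal thin filaments, had 0.51 and 1.33 TPM in the RD pair and was called higher in JR1, from 0.95 to 3.98 TPM. CAPG had 126 and 47.3 TPM in the RD pair, a change of -1.39 that was -1.12 relative to the median and -0.998 without structural RNA. Of the calls in both lines TMOD3 alone also stood below -1 in both without structural RNA, with CAPZA1 at -0.67 and -0.995 and CAPZB at -0.69 and -1.02. Relative to the median CAPZA1 was at -0.80 (RD) and -1.06 (JR1) and CAPZB at -0.82 and -1.08.

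Nucleation genes, 18 tested, had medians of -0.43 (RD) and -0.42 (JR1). ARPC3, a subunit of the Arp2/3 complex, was called higher in both lines, from 33.9 to 70.3 TPM in RD and, for JR1, from 25.1 to 77.6 TPM, the one nucleation gene so called. No other subunit of the complex was called higher as deposited, and ARPC1B was called lower in JR1, from 203 to 84.9 TPM. Its JR1 change was -1.04 relative to the median and -0.97 without structural RNA. DAAM2, a formin, was called lower in both lines, from 25.1 to 11.4 TPM in RD and, for JR1, from 12.6 to 5.47 TPM, but was at -0.72 and -0.88 without structural RNA and at -0.81 and -0.86 relative to the median, so neither call held.

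Partners of alpha-actinin were called in both directions. Of 19 tested, 4 were called higher and 3 lower in RD, and 5 higher and 1 lower in JR1, against 1.08% and 7.37% of all tested genes in RD and 1.78% and 9.05% in JR1, with medians of 0.09 (RD) and -0.02 (JR1). LDB3, a PDZ-LIM protein that binds alpha-actinin at the Z-disc, went from 0.68 to 5.80 TPM in RD and, for JR1, from 2.58 to 19.97 TPM, the highest change of the list in both lines (2.02 and 2.55). MYOZ2, a Z-disc myozenin, went from 0.84 to 4.11 TPM in RD and, for JR1, from 4.03 to 17.4 TPM. MYPN, myopalladin, went from 5.90 to 16.4 TPM and from 12.2 to 34.6 TPM, and SYNPO2L, a Z-disc synaptopodin relative, from 4.48 to 19.0 TPM and from 15.5 to 35.9 TPM. All 4 were called higher in both lines and under each scaling. VCL, vinculin of focal adhesions, went from 188 to 60.2 TPM in RD and, for JR1, from 128 to 45.9 TPM, and was the lowest of the list in both lines and called lower under each scaling. PDLIM7 and PALLD were also called lower in RD, from 51.9 to 21.2 TPM and from 24.7 to 11.3 TPM. Their RD changes of -1.25 and -1.07 were -0.98 and -0.80 relative to the median. Without structural RNA they were -0.88 and -0.71, so neither call held.

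**Figure D4:**
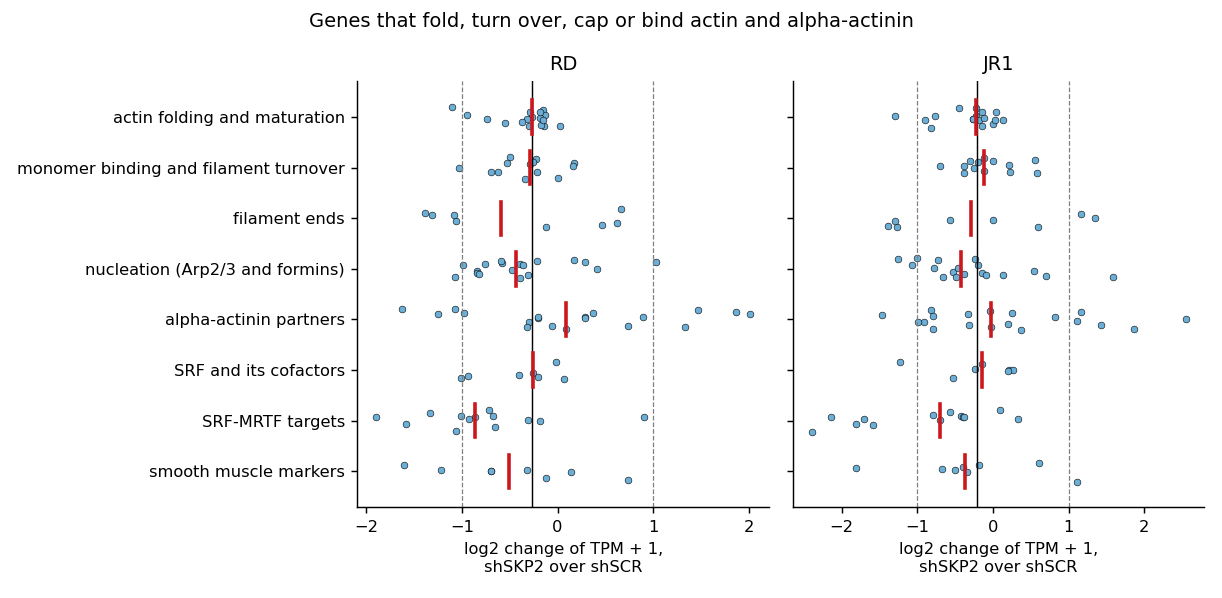
Log2 change of TPM + 1 in shSKP2 over shSCR for each tested gene of the 8 lists in RD (left) and JR1 (right), as deposited; each dot is 1 gene, the red bar is the median of its list, dashed lines mark a change of 1 and the solid line is the median of all tested genes. Partners of alpha-actinin spread from -1.62 to 2.02 in RD and from -1.46 to 2.55 in JR1. The list labelled SRF-MRTF targets, which also holds immediate early genes such as FOS, lies lowest, with medians of -0.87 and -0.70.

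SRF and its cofactors were near the background, with medians of -0.26 (RD) and -0.15 (JR1) over 7 tested genes. SRF had 40.6 TPM in RD shSCR, 33.8 in RD shSKP2, 26.1 in JR1 shSCR and 30.4 in JR1 shSKP2. MRTFA was highest in RD, at 0.07, and MRTFB in JR1, at 0.26. ELK3, a ternary complex factor, was called lower in both lines, from 23.7 to 11.2 TPM in RD and, for JR1, from 33.4 to 13.7 TPM. It was at -0.74 (RD) and -1.02 (JR1) relative to the median and at -0.66 and -0.98 without structural RNA.

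Genes listed as targets of SRF outside the family were mostly lower. The list mixes cytoskeletal genes with immediate early genes such as FOS and EGR1, so it does not describe targets of MRTF alone. Of 13 tested, 0 were called higher and 5 lower in RD, and 0 higher and 5 lower in JR1, against 7.37% and 9.05% of all tested genes lower. Those called were CCN1, TPM4, FLNA, TGFB1I1 and FOS in RD, and CCN1, CCN2, EGR1, FOS and ANKRD1 in JR1. The cytoskeletal genes CNN2, MYL9, MYH9, TPM1, TPM4, FLNA and TLN1 were not called in JR1. The medians were -0.87 and -0.70. Without structural RNA they were -0.48 and -0.46, with 2 called lower and 1 (ANKRD1) higher in RD and 5 lower in JR1, against 3.41% and 6.73% of all lower. CCN1, a matricellular protein, went from 91.8 to 35.7 TPM in RD and, for JR1, from 227 to 42.4 TPM. FOS, an immediate early gene, went from 93.5 to 24.4 TPM in RD and, for JR1, from 109.8 to 24.1 TPM. Both were called lower in both lines as deposited. CCN1 in RD was at -1.07 relative to the median and -0.95 without structural RNA. The 2 called lower in RD without structural RNA were FOS and TGFB1I1. ACTC1, itself a gene with a CArG box, was higher in both lines, and whether SRF had a part in any of these changes was not tested. TPM1, a tropomyosin gene of muscle and other cells, had the highest change of the list in JR1, at 0.33.

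Smooth muscle markers, 8 tested, had medians of -0.51 (RD) and -0.37 (JR1). The list is not particular to smooth muscle, since it also holds DES, counted above among the skeletal muscle lineage markers. HEYL was called lower in both lines, from 13.0 to 3.61 TPM in RD and, for JR1, from 21.6 to 5.44 TPM, and TAGLN in RD, from 18.5 to 7.37 TPM. The TAGLN call ended at -0.95 relative to the median and -0.89 without structural RNA. SYNPO2, which the list of alpha-actinin partners also holds, was called higher in JR1, from 15.1 to 33.8 TPM, and had 15.5 and 26.5 TPM in the RD pair.

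Markers of other cell types stood beside these results as follows. Of 8 cardiac markers 3 (NKX2-5, TNNT2 and TNNI3) reached 1 TPM in each library, their summed level was 53.5 and 61.1 TPM in the RD pair and 44.2 and 60.5 TPM in the JR1 pair, and MYH6 and RYR2 did not exceed 0.06 TPM. Fibroblast markers summed to 359.8 and 105 TPM in the RD pair and 462 and 85.5 TPM in the JR1 pair, mostly COL1A1, at 307 and 77.0 TPM in RD and 387 and 65.8 TPM in JR1. DCN and PDGFRA did not exceed 0.06 TPM. Lymphoid and myeloid markers summed to at most 0.86 TPM. The fibroblast and smooth muscle sums were lower in shSKP2 in both lines, and their part in the results was not tested.

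Related genes could take reads from the actins. The 10 found (POTEE, POTEF, POTEI, POTEJ, POTEKP, ACTBL2 and 4 ACTG1 pseudogenes) summed to 17.2 TPM in RD shSCR, 15.9 in RD shSKP2, 15.2 in JR1 shSCR and 11.0 in JR1 shSKP2, which was 0.239% to 0.452% of the actin pool. Adding them moved no isoform share by more than 0.259 percentage points.

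The genes most like a member over the 4 libraries were found by the smallest Euclidean distance of log2(TPM + 1), centred on each gene's mean, among the tested genes. For ACTC1 these were BEST3 (distance 0.104), TSPAN13 (0.202) and SEPTIN4 (0.260). Their levels were far lower than that of ACTC1, with BEST3 at 0.05 and 0.85 TPM in the RD pair and 0.67 and 4.90 TPM in the JR1 pair. At such levels the added 1 TPM shrinks the changes. The ratios of TPM of BEST3 were much larger than those of ACTC1, and its closeness depends on that constant. For ACTN2 they were ABCC9 (0.130), RBFOX1 (0.259) and ST6GALNAC5 (0.275), with RBFOX1 at 3.08, 4.81, 8.01 and 17.1 TPM in RD shSCR, RD shSKP2, JR1 shSCR and JR1 shSKP2. ABCC9 had 0.04, 0.19, 0.80 and 3.49 TPM in the same order, so its closeness depends on the added constant as well. For ACTA1 they were BCL7A, MOXD1 and JPH1, and for ACTA2 PDLIM4, PHLDA2 and SORCS2. With 4 points per gene these distances are a description.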

How the data were processed

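The authors selected poly-A RNA from RD and JR1 cells, made directional libraries, read pairs of 150 bases, aligned to GRCh38 (STAR 2.7.9a) and estimated expression by RSEM 1.3.2. Values were deposited as TPM rounded to 2 decimals, and each library totals 1e+06. Annotation release and strand setting are not given in the sources used here. Depth cannot be recovered from TPM. Changes were log2 of the ratio of TPM + 1, shSKP2 over shSCR within a line, over genes averaging 1 TPM or more, and a change of at least 1 was a call. With 1 library per line and condition no test was made. Structural RNA genes (655) were recognised by symbol. Named genes were the members, the highest and lowest of each list per line, list genes called the same way in both lines, overlapping and related genes, and the 3 genes most like a member. Members and lists were chosen with earlier results of these data known. Alternatives were other added constants, scalings, filters and limits. Calculations were tested on simulated data, with Python 3.11.15, numpy 2.4.6, pandas 2.3.3, matplotlib 3.10.9 and biopython 1.88.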

Additional observations from a re-analysis of the deposited data

Results flagged for a closer look

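2 members moved in opposite directions in the lines as deposited. The log2 changes of ACTG1 were -0.40 (RD) and 0.11 (JR1), so that JR1 minus RD was 0.51, and those of ACTN3 were 0.04 (RD) and -0.51 (JR1), giving -0.55. Neither difference was tested, since each arm is 1 library, and all 4 changes are smaller than the limit of 1. For ACTG1 the opposite signs were also seen relative to the median of the tested genes (-0.13 and 0.33) but not without structural RNA (0.01 and 0.40). For ACTN3 they were seen under these scalings too, at 0.31 and -0.30 and at 0.41 and -0.28.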

How the results depend on the processing

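No result reversed a call. The number of members called higher in RD went from 0 to 1 (ACTC1) when changes were centred on the median, when structural RNA was removed, with or without RMRP, RPPH1 and transfer RNA genes, and with a limit of 1.5-fold, which also called 2 members lower. In JR1 an added constant of 5 TPM left 1 of 2 (ACTC1). Between the controls 0 members were called higher as deposited, 2 with an added constant of 0.1 TPM, 2 after centring, 3 and 4 after the removals, and 3 with 1.5-fold, where 3 were called lower. List genes called higher in RD went from 5 to 8 with 0.1 TPM, 1 with 5 TPM, 8 after centring, 10 and 11 after the removals and 10 with 1.5-fold. Those called lower in RD went from 18 to 10 with 5 TPM, 7 after centring, 5 and 5 after the removals and 38 with 1.5-fold. In JR1 those called higher went from 8 to 4 with 5 TPM and 13 with 1.5-fold, and those called lower from 15 to 30 with 1.5-fold. A filter of TPM above 0 or a mean of 5 TPM moved none of these counts by over 1.5 times. Adding related genes to the actin pool moved no isoform share by more than 0.259 percentage points. No alpha-actinin pseudogene was matched by symbol among the genes with a value here (ACTN4P1 is in the transcript annotation), so that alternative gave no value. The labels carry no replicate numbers that could serve as a block. A fit over both lines with the line as a block was not run, and no library could be left out within a line and condition. Depth and replicate spread are unknown for every value.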

Other observations

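CSRP3 and ANKRD1, both named here after their values were seen, encode proteins of the striated muscle Z-disc and I-band and went opposite ways in the lines. ANKRD1 had 5.69 TPM in RD shSCR, 11.5 in RD shSKP2, 27.3 in JR1 shSCR and 8.47 in JR1 shSKP2. CSRP3, the muscle LIM protein that binds alpha-actinin, had 0.41, 1.62, 11.1 and 5.45 TPM in the same order. In both genes the control libraries were furthest apart between lines and the knockdown libraries closer together. The log2 changes of 0.90 and -1.58 for ANKRD1 and 0.89 and -0.91 for CSRP3, RD before JR1, kept their signs relative to the median and without structural RNA. Neither difference between lines was tested.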
